A study of Homo sapiens with 12 samples.

Results

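The response to CITCO was examined in HepaRG cells whose constitutive androstane receptor (CAR) had been knocked out, across all loci of the expression table. HepaRG is a line from a human hepatoma, and its cultures contain cells resembling hepatocytes beside cells resembling bile duct epithelium. The comparison rested on 4 of the 12 RNA sequencing libraries: 2 of CAR-knockout (KO) cells given CITCO (KO CITCO) and 2 of KO cells given the solvent DMSO (KO DMSO). Libraries of KO cells given PB, phenobarbital (KO PB), and of wild-type cells given CITCO (WT CITCO) or DMSO (WT DMSO), 2 of each, served to show where this response differed, and 2 of wild-type cells given phenobarbital (WT PB) entered the shared fit. Every group is HepaRG, and the named difference between KO and WT is the knockout of the human CAR gene. KO and WT cells given DMSO also differed in other transcripts, such as CRP, at means of 1106 and 18.9 CPM. How the knockout was made, whether it is 1 clone, and the doses and exposure times were not given in the sources used here. The labels call the libraries duplicates without saying that they came from separate cultures, so p-values reflect only how far these libraries varied, and that variation may be technical.

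CAR, encoded by NR1I3, is a nuclear receptor of liver that pairs with the retinoid X receptor and switches on genes of drug oxidation, conjugation and export. CITCO is a synthetic agonist of human CAR, widely used to separate CAR from the related pregnane X receptor (PXR, encoded by NR1I2), although binding of CITCO to human PXR has also been reported. PXR shares many target genes with CAR, among them CYP3A4 and CYP2B6. Another sensor, the aryl hydrocarbon receptor (AhR), pairs with ARNT and controls mainly CYP1A1 and CYP1A2. With the CAR gene knocked out, the comparison asks what CITCO changes other than through CAR.

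Of 15822 loci, 15792 had at least 1 CPM (read counts scaled to a common library size by the authors) in at least 2 of the 12 libraries and were tested. These loci drew 49.3 to 66.5 M reads a library, and 54.9 to 65.3 M in the 4 KO libraries compared. Duplicates differed by more than sampling noise in every group. Of 10 hepatocyte markers, 9 had a row, and the 8 other than CYP3A4, which itself responded, summed to 58069.8 and 58741 CPM in KO CITCO libraries, against 61099 and 59329.9 CPM in KO DMSO libraries. ALB, albumin, made up most of these sums, at 40497 and 41352 CPM against 44229 and 42810 CPM. Of 7 biliary markers, 5 had a row, and the 4 other than KRT19, which was itself called, summed to 160.4 and 166 CPM in KO CITCO libraries, against 170.0 and 165 CPM in KO DMSO libraries. Of 7 mesenchymal, 4 endothelial and 4 immune markers, 3, 2 and 1 had a row. NR1I3 was read at 9.63 and 10.7 CPM in KO CITCO libraries, against 11.01 and 10.6 CPM in KO DMSO libraries, and since the labels do not place the edit, this level checks nothing about the genotype. The RNA is from bulk cultures, so fewer cells of a type and less RNA per cell cannot be told apart.

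Few transcripts were called as changed by CITCO in KO cells, and the called rises were led by cytochrome P450 genes. In limma on log2(CPM + 0.5), 128 loci were called at a Benjamini-Hochberg adjusted p under 0.05, which is 0.811% of those tested. Of these, 61 (0.386%) were higher and 67 (0.424%) lower with CITCO, and 1743 had an unadjusted p under 0.05. With every library scaled to its own total instead, the split was 85 higher and 55 lower. Most called changes were small: the median log2 change was 0.40 among those higher and 0.27 in size among those lower, beside a median of -0.0023 over all loci. The called loci at least 2-fold higher on the log2(CPM + 0.5) scale numbered 7: CYP1A1, CYP1A2, CYP3A4, CYP3A7, ALDH3A1, SERPINB2 and CFHR5. All 8 called loci at least 2-fold lower were copies of the 5.8S ribosomal RNA gene. RP11-311F12.2, described below, was over 2-fold higher by its mean CPM but under 2-fold on that scale. Without any 1 of the 4 libraries, 40 to 55 loci were called. In all 128, neither KO CITCO library fell within the range of the KO DMSO libraries, which also held for 42.6% of all loci tested. A prior variance held constant over expression levels left 20 calls, 17 of them among the 128; it left 4 in the P450 list, 2 in the AhR list (all but CYP1A2) and none in the NRF2, cell cycle and hypoxia lists described below.

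CYP1A1, the AhR-controlled enzyme that oxidises polycyclic aromatic hydrocarbons, showed the largest change. It was at 16.9 and 17.3 CPM in KO CITCO libraries, against 0.268 and 0.540 CPM in KO DMSO libraries. Both treated libraries lay far above both controls. The ratio of the means was 42.3. On the log2(CPM + 0.5) scale the change was 4.30 (SE 0.22, limma adjusted p = 1.49e-09). The KO DMSO levels lie near the added 0.5, so this size depends on it: the change was 3.69 to 5.15 over the alternative settings. CYP1A2, its neighbour in the same gene cluster and the enzyme that clears caffeine, was at 2.35 and 2.42 CPM in KO CITCO libraries, against 0.468 and 0.152 CPM in KO DMSO libraries. The groups did not overlap (log2 change 1.86, SE 0.25, limma adjusted p = 6.64e-04). Its log2 change was 1.38 to 2.71 over the alternative settings.

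ALDH3A1, an aldehyde dehydrogenase that the AhR also controls, was at 114 and 106 CPM in KO CITCO libraries, against 47.9 and 49.5 CPM in KO DMSO libraries and so was 2.26-fold higher (log2 change 1.16, SE 0.057, limma adjusted p = 1.00e-09). The other tested AhR targets did not pass the test: NQO1 (log2 change 0.16, adjusted p = 0.871), TIPARP (0.12, adjusted p = 0.599), an ADP-ribosyltransferase that curbs the AhR, and LRAT (0.11, adjusted p = 0.840), which esterifies retinol. Thus 3 of 6 tested members of the AhR list rose in limma (background 0.386%), with a list median of 0.66. AHR itself (log2 change -0.045, adjusted p = 0.878) and ARNT (-0.12, adjusted p = 0.461) were not called by limma. The calls of CYP1A1, CYP1A2 and ALDH3A1 held without each of the 4 libraries in turn.

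The promoters of CYP1A1 and CYP1A2 are printed because these genes rose by the most. They are the bases before the RefSeq start site (assembly GRCh38.p14, chr15:74725529-74725778, minus strand, and chr15:74748595-74748844, plus strand), 5′ to 3′. Capitals mark GCGTG on either strand, the core of the site that the AhR and ARNT bind.
CYP1A1: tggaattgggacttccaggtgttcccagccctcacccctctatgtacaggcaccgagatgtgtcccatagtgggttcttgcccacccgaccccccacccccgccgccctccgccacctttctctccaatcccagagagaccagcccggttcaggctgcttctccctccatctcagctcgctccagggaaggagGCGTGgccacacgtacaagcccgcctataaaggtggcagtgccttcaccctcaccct
CYP1A2: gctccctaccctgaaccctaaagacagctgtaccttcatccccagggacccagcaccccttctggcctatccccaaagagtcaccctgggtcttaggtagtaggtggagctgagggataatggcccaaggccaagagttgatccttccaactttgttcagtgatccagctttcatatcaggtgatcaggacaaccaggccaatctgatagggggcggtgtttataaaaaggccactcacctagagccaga
CYP1A1 held 1 match, beginning 57 bases before the start site, and CYP1A2 held none in this window. Bases further from the start sites were not searched, so this does not show which sites the AhR uses at either gene. The same core occurred in 32.2% of 35116 RefSeq promoters of this length, so a match here is common. ALDH3A1 had no entry in the promoter table.

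**Figure D1:**
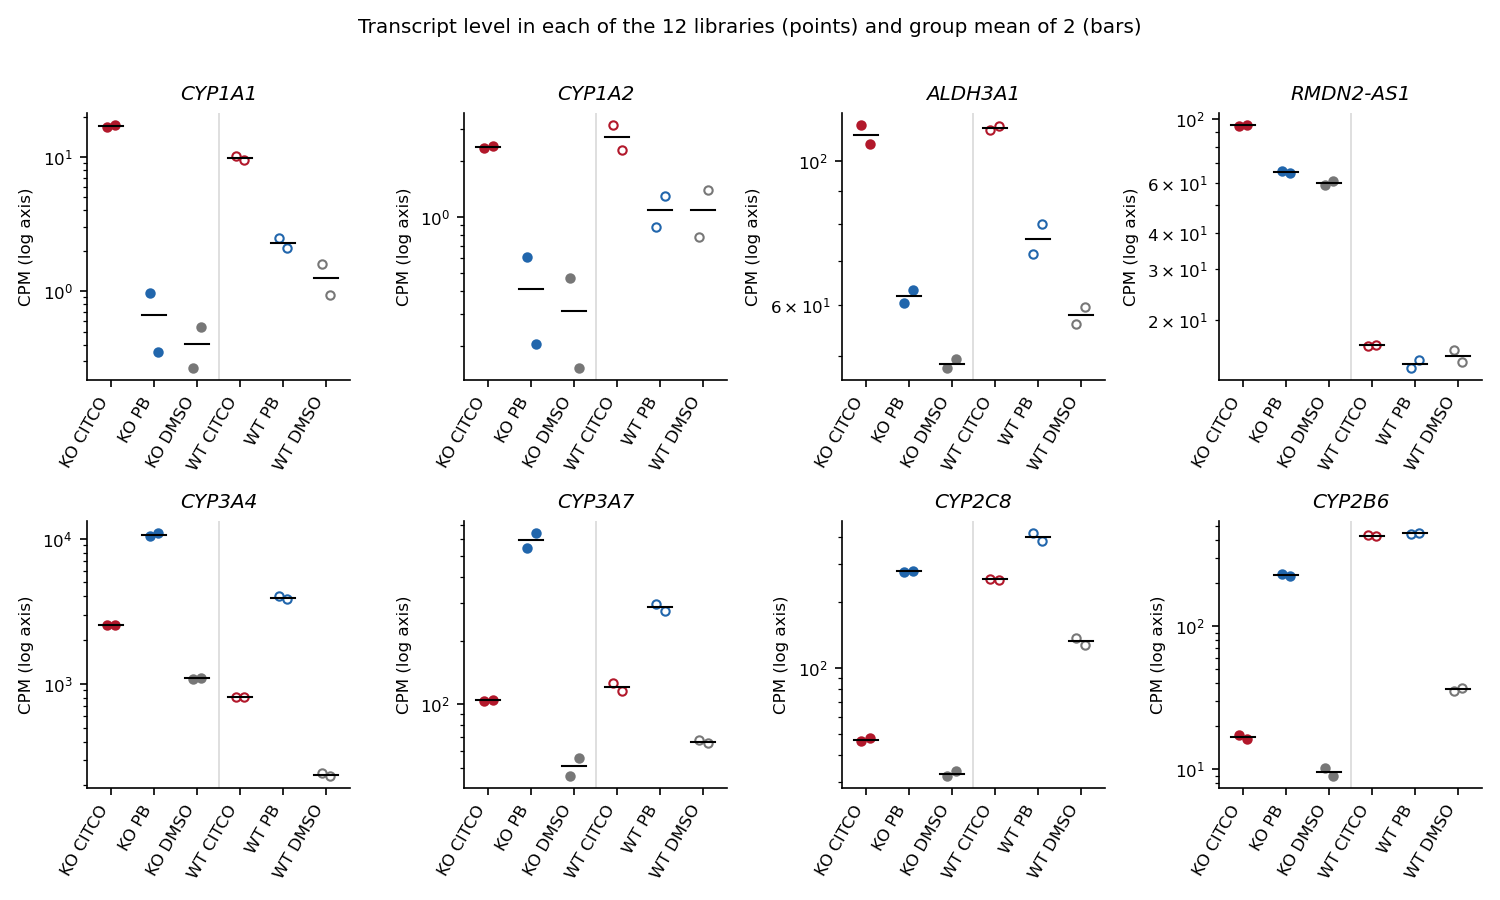
CPM (log axis) of 8 transcripts in each of the 12 libraries, with KO libraries as filled and WT libraries as open points; red is CITCO, blue PB and grey DMSO, and bars are means of 2. The KO CITCO points of CYP1A1, CYP1A2, ALDH3A1 and RMDN2-AS1 lie above both KO PB and KO DMSO points, whereas those of CYP3A4, CYP3A7, CYP2C8 and CYP2B6 lie between them.

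Of the CYP3A enzymes, which oxidise a large share of prescribed drugs, 3 rose. CYP3A4 was at 2546 and 2544 CPM in KO CITCO libraries, against 1079.9 and 1101 CPM in KO DMSO libraries. The duplicates nearly coincided in both groups, and the ratio of the means was 2.33 (log2 change 1.22, SE 0.035, limma adjusted p = 1.76e-13). CYP3A7, the form of fetal liver, was at 104 and 105 CPM in KO CITCO libraries, against 45.9 and 56.0 CPM in KO DMSO libraries (log2 change 1.04, adjusted p = 4.15e-07). CYP3A5, whose level differs widely between people, was at 219.6 and 215 CPM in KO CITCO libraries, against 174 and 172 CPM in KO DMSO libraries and changed by less (0.33, adjusted p = 5.08e-04). CYP3A43 was not called (0.66, limma adjusted p = 0.0821). The CYP3A genes are close copies, and how reads matching several of them were counted was not given in the sources used here, so their separate changes are uncertain.

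The promoters of CYP3A4 and CYP3A5 (RefSeq, GRCh38.p14, chr7:99784185-99784434, minus strand, and chr7:99679997-99680246, minus strand) are shown for the element through which PXR and CAR are known to act on CYP3A genes. Capitals mark TGAACT followed, after 6 bases of any kind, by AGGTCA or AGTTCA, searched on both strands.
CYP3A4: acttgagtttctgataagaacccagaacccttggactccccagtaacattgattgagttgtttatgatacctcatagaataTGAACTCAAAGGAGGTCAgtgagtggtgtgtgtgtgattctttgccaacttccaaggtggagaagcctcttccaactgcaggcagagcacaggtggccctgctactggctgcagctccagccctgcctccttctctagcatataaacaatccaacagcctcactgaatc
CYP3A5: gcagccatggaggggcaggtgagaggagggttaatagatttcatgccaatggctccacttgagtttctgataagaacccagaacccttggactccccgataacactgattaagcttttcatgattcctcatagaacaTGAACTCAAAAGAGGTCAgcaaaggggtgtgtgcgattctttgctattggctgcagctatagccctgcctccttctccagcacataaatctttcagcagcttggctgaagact
The match began 169 bases before the start site in CYP3A4 and 113 bases before it in CYP3A5. Only 3 of 35116 RefSeq promoters of this length (0.00854%) held either form. Of the 8 called members of the P450 list, 6 had an entry, and CYP3A4 and CYP3A5 were the 2 with a match. CYP3A7, CYP2C8 and CYB5A held none, although the log2 change was 1.04 for CYP3A7 and 0.33 for CYP3A5. As the pattern was that of the known CYP3A element, these matches do not test which receptor acted. CYP2B6, whose known response element lies far upstream, held none (GRCh38.p14, chr19:40991032-40991281, plus strand), and its start is given for comparison.
CYP2B6: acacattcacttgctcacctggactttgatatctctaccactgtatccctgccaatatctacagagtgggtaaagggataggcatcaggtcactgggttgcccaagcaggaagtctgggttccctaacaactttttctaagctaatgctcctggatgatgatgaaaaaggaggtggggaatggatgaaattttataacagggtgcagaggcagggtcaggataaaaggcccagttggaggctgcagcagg

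CYP2B6, the usual marker of CAR activation, rose modestly without CAR. It was at 17.4 and 16.1 CPM in KO CITCO libraries, against 10.2 and 8.95 CPM in KO DMSO libraries. The groups did not overlap, and the ratio of the means was 1.75 (log2 change 0.78, SE 0.058, limma adjusted p = 4.15e-07). In WT cells the level was 435 and 424 CPM in WT CITCO libraries, against 35.2 and 37.1 CPM in WT DMSO libraries, a ratio of 11.9. The log2 response in KO minus that in WT was -2.78 (95% interval -2.95 to -2.60, adjusted p = 3.52e-13), the largest negative difference of any locus called for it. CYP2B7P, a pseudogene copy of CYP2B6 that may share its reads, was at 7.73 and 7.32 CPM in KO CITCO libraries, against 7.64 and 8.32 CPM in KO DMSO libraries. The response of CYP2B7P was not called in KO (log2 change -0.079, adjusted p = 0.828), while its levels in WT were 42.0 and 39.5 CPM in WT CITCO libraries, against 9.86 and 8.16 CPM in WT DMSO libraries (difference -2.20, adjusted p = 9.49e-09).

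Of the 14 tested members of the list of drug-metabolising P450s and their partners, 8 rose and none fell, with a list median of 0.29, where 0.386% of all loci were called higher. In the CYP2C subfamily, CYP2C8, which oxidises paclitaxel, was at 46.5 and 47.7 CPM in KO CITCO libraries, against 32.1 and 33.7 CPM in KO DMSO libraries (log2 change 0.51, adjusted p = 1.15e-05). CYP2C18 rose by 0.30 (adjusted p = 0.00123). CYB5A, the cytochrome b5 that passes electrons to P450s, rose by 0.16 (adjusted p = 0.0418). CYP2A6, which oxidises nicotine, was not called at 116 and 112 CPM in KO CITCO libraries, against 113 and 108 CPM in KO DMSO libraries (log2 change 0.047, 95% interval -0.052 to 0.15, adjusted p = 0.799). Neither was POR, the reductase of all microsomal P450s (0.10, adjusted p = 0.412), nor ALAS1, which makes the first intermediate of heme (0.073, adjusted p = 0.672). Without any 1 of the 4 libraries the list still held 7 calls. All of these are limma values over all loci.

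The same list responded more in WT cells, where 11 members rose (background 1.18%) and the median was 0.74. The cultures given DMSO also differed: the 8 hepatocyte markers summed to 61099 and 59329.9 CPM in KO DMSO libraries, against 157960.3 and 153008.5 CPM in WT DMSO libraries. ALB made up most of these sums, at 44229 and 42810 CPM against 129931 and 125205 CPM. The part of this gap in the differences between responses was not tested. The difference between the responses was called for 8 members (background 0.228%), all smaller in KO. For CYP2A6 it was -1.16 (95% interval -1.30 to -1.02, adjusted p = 9.49e-09), with WT levels of 137 and 142 CPM in WT CITCO libraries, against 59.1 and 61.8 CPM in WT DMSO libraries. For CYP3A4 the difference was -0.55 (adjusted p = 4.93e-06), for CYP2C8 -0.43 (adjusted p = 0.00457) and for POR -0.45 (adjusted p = 0.00181). The CYP2C8 difference missed the threshold without KO CITCO replicate 1 (adjusted p = 0.0514). CYP3A5 and CYP3A7 showed no called difference by limma, with 95% intervals, unadjusted for the number of loci, of 0.036 to 0.29 and -0.043 to 0.42. CYP1A1 went the other way: its log2 change was 4.30 in KO and 2.58 in WT cells, where the levels were 10.2 and 9.57 CPM in WT CITCO libraries, against 1.58 and 0.944 CPM in WT DMSO libraries. That difference was 1.72 (95% interval 1.06 to 2.38, adjusted p = 0.0153), and it missed the threshold when any 1 of 6 of the 8 libraries was left out, with adjusted p-values of up to 0.132; it kept it without KO DMSO replicate 2 and without WT DMSO replicate 2.

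**Figure D2:**
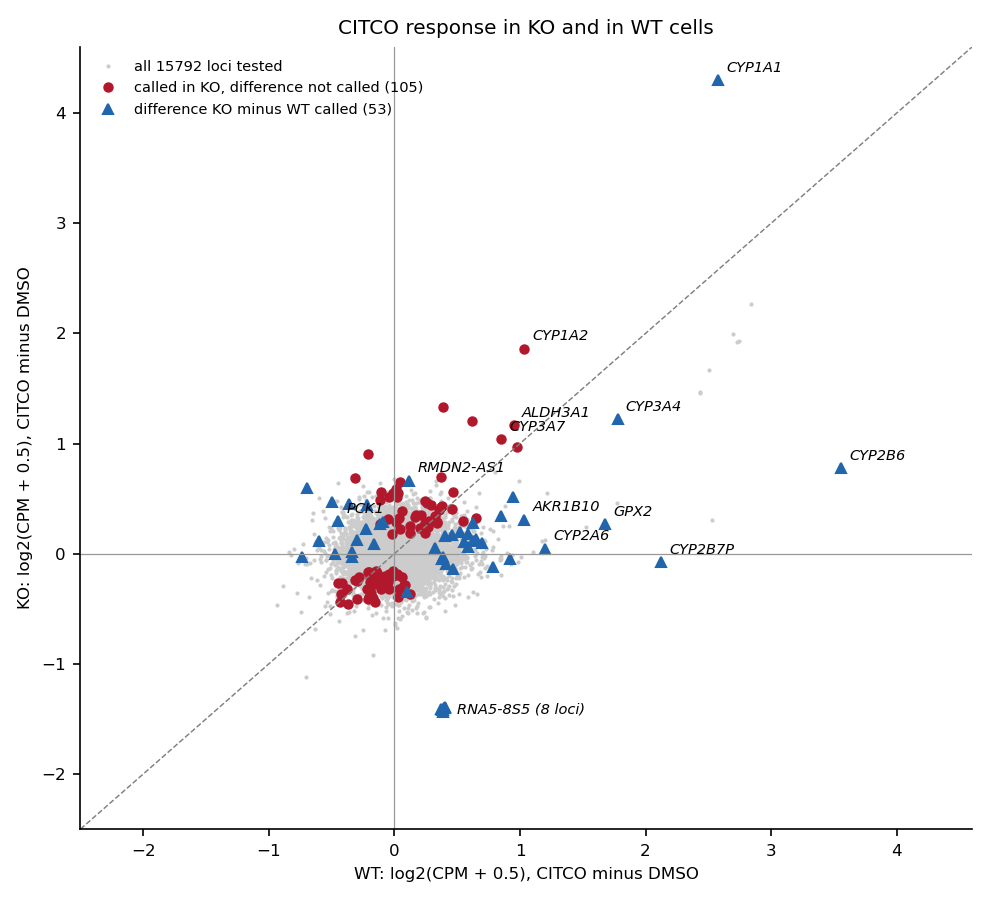
Log2 change with CITCO in KO cells (vertical) and in WT cells (horizontal) for all 15792 loci, with the dashed line marking equal changes. Grey dots are all loci, circles the 105 called in KO without a called difference, and triangles the 53 whose responses differed, CYP2B6, CYP2B7P, CYP2A6 and GPX2 lying far below the line and CYP1A1 above it.

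Across all loci, 348 were called in WT cells (2.2%), of which 187 were higher and 161 lower (252 and 102 with total scaling). Those shares are 1.18% and 1.02% of all loci. Of the 128 loci called in KO, 48 were also called in WT, which is 37.5% of the KO calls and 13.8% of the WT calls, and all 48 changed in the same direction, 29 higher and 19 lower. The 2 comparisons share no library, but the common fit gives them the same estimate of each locus's spread, so their calls are not independent. The difference of the responses was called at 53 loci (0.336%), 17 (0.108%) with a higher and 36 (0.228%) with a lower value in KO. Of these, 23 were among the 128 KO calls. Both the 36 and the 23 include the 8 near-identical loci of RNA5-8S5, described below. With a constant prior variance the difference was called at 6 loci, and the calls of CYP1A1 and CYP3A4 were lost. Without 1 library, 23 to 46 loci were called for 7 of the 8 libraries, and 491 without WT DMSO replicate 2. The count in WT cells alone was 109 to 168 without WT CITCO replicate 1, WT CITCO replicate 2 or WT DMSO replicate 1, and 992 without WT DMSO replicate 2.

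A few targets of the oxidative stress factor NRF2 rose. Of 18 tested members, 4 were called higher (background 0.386%) and none lower, with a list median of 0.093. All 18 had a positive log2 change, against 49.0% of all loci. SLC7A11, the cystine importer, was at 16.5 and 18.2 CPM in KO CITCO libraries, against 10.6 and 12.6 CPM in KO DMSO libraries (log2 change 0.56, SE 0.10, limma adjusted p = 0.00980). The aldo-keto reductase AKR1B10, which reduces retinal and other aldehydes, was at 225 and 231 CPM in KO CITCO libraries, against 185 and 183 CPM in KO DMSO libraries (log2 change 0.31, adjusted p = 5.76e-05). The steroid-reducing AKR1C2 rose by 0.35 (adjusted p = 1.24e-05) and its near-identical copy AKR1C1 by 0.17 (adjusted p = 0.00534), with a split of reads between them that is uncertain. GPX2, a glutathione peroxidase, was at 54.8 and 52.6 CPM in KO CITCO libraries, against 45.2 and 44.0 CPM in KO DMSO libraries and just missed the threshold (0.27, adjusted p = 0.0574). NFE2L2, which encodes NRF2, rose by 0.25 (adjusted p = 0.0302). AKR1C2 and AKR1B10 kept their calls without each library in turn, while SLC7A11 (adjusted p up to 0.239) and AKR1C1 (up to 0.10) lost theirs without KO DMSO replicate 1 or either KO CITCO library. NFE2L2 lost its call without any 1 of the 4 (adjusted p up to 0.322).

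In WT cells 14 of these 18 NRF2 targets rose (background 1.18%), and the difference was called for 5 (background 0.228%), each smaller in KO. It was -1.41 for GPX2 (95% interval -1.60 to -1.23, adjusted p = 3.19e-08), -0.72 for AKR1B10 (adjusted p = 5.07e-08), -0.52 for the sulfiredoxin SRXN1 (adjusted p = 0.00114), -0.50 for AKR1C2 (adjusted p = 9.61e-06) and -0.29 for AKR1C1 (adjusted p = 0.00181). SLC7A11 showed no called difference (95% interval -0.21 to 0.41).

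Conjugation and export changed little. Of 16 phase II enzymes, EPHX1, the microsomal epoxide hydrolase, was the 1 called, at 458 and 455 CPM in KO CITCO libraries, against 409 and 388 CPM in KO DMSO libraries (log2 change 0.20, adjusted p = 0.00471), and it lost the call without KO DMSO replicate 2 or either KO CITCO library (adjusted p up to 0.0854). The bilirubin transferase UGT1A1, whose locus shares exons with other UGT1A genes (0.079, adjusted p = 0.378), the bile acid transferase UGT2B4 (0.18, adjusted p = 0.0623) and the sulfotransferase SULT2A1 (0.099, adjusted p = 0.291) were not called. Of 19 transporters, ABCC2, which exports conjugates into bile, was the 1 called, at 257 and 257 CPM in KO CITCO libraries, against 212 and 211 CPM in KO DMSO libraries (log2 change 0.28, SE 0.040, limma adjusted p = 0.00142). ABCB1, the drug efflux pump P-glycoprotein, was at 96.0 and 98.9 CPM in KO CITCO libraries, against 90.3 and 90.5 CPM in KO DMSO libraries and was not called (0.11, adjusted p = 0.375).

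Set directly against phenobarbital in the same KO cells, CITCO gave lower levels of the P450 list and higher levels of 3 AhR targets. All 14 tested members of the P450 list were called lower with CITCO than with PB, among 865 loci called between the drugs (5.48%). Of the 865, 302 (1.91%) were higher and 563 (3.57%) lower with CITCO (596 and 388 with total scaling), and 392 to 457 were called without any 1 of these 4 libraries. CYP2B6 was at 17.4 and 16.1 CPM in KO CITCO libraries, against 229.9 and 226 CPM in KO PB libraries (log2 CITCO minus PB -3.73, adjusted p = 5.26e-18). CYP2C8 was at 46.5 and 47.7 CPM in KO CITCO libraries, against 276 and 279.6 CPM in KO PB libraries (-2.55, adjusted p = 4.79e-17). For CYP3A4 the levels were 2546 and 2544 CPM in KO CITCO libraries, against 10414 and 10929 CPM in KO PB libraries (-2.07, adjusted p = 9.80e-18). The gap was -2.50 for CYP3A7, -1.48 for CYP2A6, -0.99 for ALAS1 and -1.40 for ABCB1, each called by limma.

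In the other direction, CYP1A1 was at 16.9 and 17.3 CPM in KO CITCO libraries, against 0.969 and 0.352 CPM in KO PB libraries (3.98, adjusted p = 7.52e-10), and both CITCO libraries lay above both PB libraries. CYP1A2 (1.71, adjusted p = 2.20e-04) and ALDH3A1 (0.82, adjusted p = 1.92e-08) followed. These were 3 of the 6 tested AhR targets, and NQO1, TIPARP and LRAT were not called between the drugs (background 1.91%). Against the shared KO DMSO libraries, the log2 changes of CYP1A1 were 4.30 with CITCO and 0.32 with PB, and those of CYP3A4 1.22 and 3.29. Outside these families, FOXN4, a forkhead transcription factor gene, was lower with CITCO than with PB (-1.90, adjusted p = 2.53e-07), as was AKR1D1, which reduces bile acid precursors (-1.83, adjusted p = 1.87e-11). HSD3B1, a steroid dehydrogenase (1.05, adjusted p = 1.23e-06), SULT1D1P, a sulfotransferase pseudogene (0.85, adjusted p = 9.45e-07), SLC14A1, a urea transporter (0.83, adjusted p = 9.26e-05), and ALPP, an alkaline phosphatase with close copies (0.81, adjusted p = 5.44e-07), were higher with CITCO than with PB. Against KO DMSO libraries, the log2 changes with CITCO and with PB were 0.45 and 2.35 for FOXN4 and 0.21 and 2.05 for AKR1D1. They were -0.15 and -1.20 for HSD3B1 and 0.13 and -0.73 for SULT1D1P. Limma called none of these CITCO changes. For SLC14A1 and ALPP, whose CITCO changes were called, they were 0.65 and -0.19, and 0.42 and -0.38. GSTA5 was called lower (-2.41, adjusted p = 0.0127), but not without KO CITCO replicate 2 or KO PB replicate 2 (adjusted p up to 0.188). Doses of both drugs were not given in the sources used here, so the sizes cannot be set to a matched dose. The 8 hepatocyte markers other than CYP3A4, mostly ALB, summed to 58069.8 and 58741 CPM in KO CITCO libraries, against 59924 and 60685 CPM in KO PB libraries. CD14, the only immune marker with a row, stood at 6.05 and 6.40 CPM in KO CITCO libraries, against 18.8 and 17.6 CPM in KO PB libraries. In KO DMSO libraries it was at 7.23 and 6.13 CPM, and 1 gene does not show that immune cells were present. The part of these markers in the differences between the drugs was not tested.

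**Figure D3:**
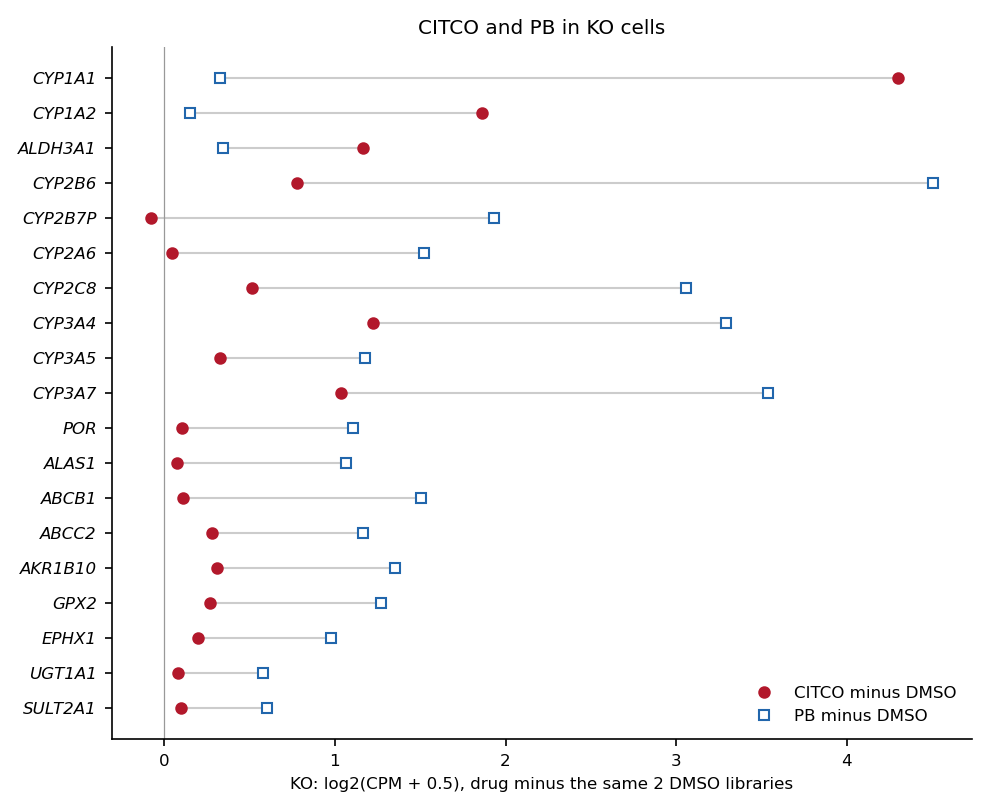
Log2 change in KO cells with CITCO (filled circles) and with PB (open squares) against the same 2 KO DMSO libraries, for genes of drug handling. CITCO exceeds PB for CYP1A1, CYP1A2 and ALDH3A1 and falls short of it for the others shown.

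Several cell cycle genes rose slightly. Of 31 tested, 6 rose (background 0.386%) and none fell, the list median was 0.23, and 28 had a positive log2 change, against 49.0% of all loci. CDK1, the kinase that drives mitosis, was at 43.0 and 45.3 CPM in KO CITCO libraries, against 31.3 and 33.7 CPM in KO DMSO libraries (log2 change 0.44, adjusted p = 0.00425). CCNA2, the cyclin A of S phase, rose by 0.40 (adjusted p = 0.0163), the spindle checkpoint kinase BUB1 by 0.35 (adjusted p = 0.0477), the DNA topoisomerase TOP2A by 0.30 (adjusted p = 0.0105), the proliferation marker MKI67 by 0.29 (adjusted p = 0.00454) and the thymidylate synthase TYMS by 0.23 (adjusted p = 0.0490). CCNB1, the mitotic cyclin B1, was at 45.0 and 45.9 CPM in KO CITCO libraries, against 40.0 and 34.98 CPM in KO DMSO libraries and was not called (0.28, adjusted p = 0.111). With total scaling 10 members rose. These calls were sensitive to single libraries: 2 of the list remained without KO CITCO replicate 1, none without KO CITCO replicate 2, and 1 without either KO DMSO library. In WT cells 12 rose (background 1.18%) with a median of 0.29, and no member differed between the genotypes by the limma test of the difference. With PB in KO cells, the list median against the same KO DMSO libraries was 0.094, and CDK1 was at 41.2 and 42.0 CPM. Between the drugs in KO cells, 1 of the 31 was called by limma, and it was higher with CITCO (background 1.91%). Of 20 p53 targets, none was called in KO, and their median was 0.033. A lean to positive values was not particular to the cell cycle list. It was also seen in 18 of the 20 p53 targets, all 18 NRF2 targets and 18 of 23 ribosomal protein genes.

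Several genes known to be induced by low oxygen, among them genes of sugar use, fell slightly. Of 21 tested, 6 fell (background 0.424%) and none rose, with a median of -0.11. NDRG1, a stress gene often used as a hypoxia marker, was at 993 and 959.6 CPM in KO CITCO libraries, against 1278 and 1237 CPM in KO DMSO libraries (log2 change -0.36, SE 0.037, limma adjusted p = 2.47e-05). The glucose importer SLC2A1 was at 89.8 and 86.8 CPM in KO CITCO libraries, against 105 and 108 CPM in KO DMSO libraries (-0.27, adjusted p = 0.0141). Also called lower were EGLN3, an oxygen-sensing hydroxylase (-0.26, adjusted p = 0.0192), PFKFB3, an activator of glycolysis (-0.25, adjusted p = 0.0305), CA9, a carbonic anhydrase (-0.23, adjusted p = 0.0170), and BNIP3, a mitophagy receptor (-0.17, adjusted p = 0.0393). The targets VEGFA (0.022, adjusted p = 0.931) and LDHA (-0.075, adjusted p = 0.443) were not called. Only the NDRG1 call held without each library in turn; 1 call of the list remained without KO CITCO replicate 1, KO CITCO replicate 2 or KO DMSO replicate 1, and 2 without KO DMSO replicate 2. In WT cells 10 fell (background 1.02%), with a median of -0.21, and no difference between genotypes was called by limma. With PB in KO cells, the list median against the same KO DMSO libraries was -0.15, and NDRG1 was at 1038 and 1034 CPM. Between the drugs in KO cells, limma called 4 of the 21 higher with CITCO (background 1.91%) and 1 lower (background 3.57%).

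Of the lists of lipogenesis, of fatty acid oxidation and PPARA targets, and of gluconeogenesis and glycogen, 5 members fell (background 0.424%). SCD, the stearoyl-CoA desaturase, was at 2145 and 2173 CPM in KO CITCO libraries, against 2460.1 and 2536 CPM in KO DMSO libraries (log2 change -0.21, SE 0.031, limma adjusted p = 0.00142). SREBF1, the master factor of fatty acid synthesis, fell by 0.25 on the log2 scale (adjusted p = 0.0476). These were 2 of 14 lipogenesis genes tested. PLIN2, which coats lipid droplets, was at 444 and 450.4 CPM in KO CITCO libraries, against 548 and 521 CPM in KO DMSO libraries (-0.26, adjusted p = 0.00142), and ANGPTL4, an inhibitor of lipoprotein lipase, changed by -0.30 (adjusted p = 0.0305); they were 2 of 23 genes of fatty acid oxidation and PPARA targets. PPP1R3C, which promotes glycogen synthesis, was the 1 of 14 gluconeogenesis and glycogen genes called, and was lower (-0.27, adjusted p = 0.00489). SCD and PPP1R3C were not called between CITCO and PB in KO cells (log2 CITCO minus PB -0.018 and -0.036), and neither was SREBF1 (-0.19). PLIN2 (-0.31) and ANGPTL4 (-0.36) were called lower with CITCO than with PB. The SREBF1 call was also lost with total scaling and with a pseudocount of 0.1 CPM. The SCD and PLIN2 calls held without each library, and those of SREBF1, ANGPTL4 and PPP1R3C were lost without any 1 of the 4 (adjusted p up to 0.368, 0.255 and 0.0858). PCK1, the gate of gluconeogenesis, was at 20.3 and 19.5 CPM in KO CITCO libraries, against 15.9 and 16.4 CPM in KO DMSO libraries and just missed the threshold (0.29, adjusted p = 0.0539), while in WT cells it fell (-0.45, adjusted p = 9.53e-04; difference 0.74, 95% interval 0.54 to 0.94, adjusted p = 8.77e-04).

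**Figure D4:**
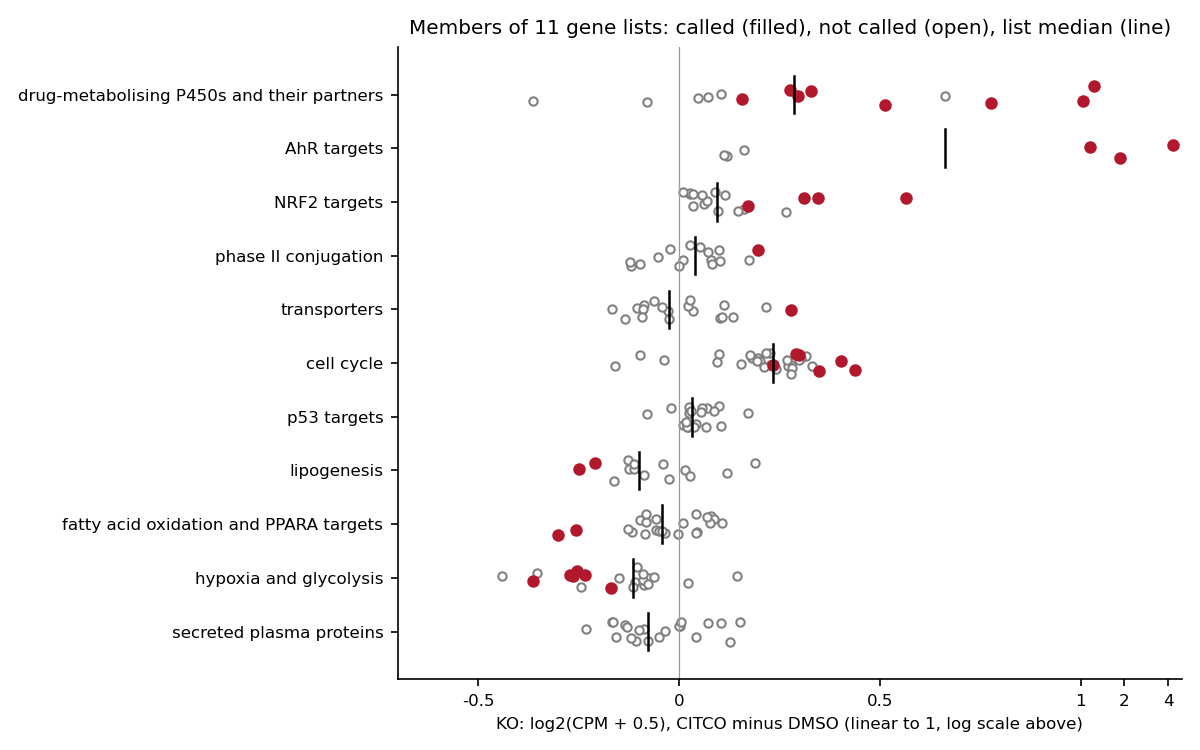
Log2 change in KO cells, CITCO minus DMSO, for the tested members of 11 gene lists, on an axis that is linear to 1 and logarithmic above; filled points passed limma's adjusted p of 0.05, and lines are list medians. Most cell cycle points lie right of 0 and most hypoxia points left of it, all within 0.5, while the P450 and AhR lists reach past 1.

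Small structured RNAs made up the steepest decreases. The 8 loci named RNA5-8S5, near-identical copies of the 5.8S ribosomal RNA gene that may share reads, summed to 26.6 and 36.7 CPM in KO CITCO libraries, against 77.9 and 103 CPM in KO DMSO libraries. Each was called, with log2 changes of -1.43 to -1.39, and each lost the call without KO CITCO replicate 1 or KO DMSO replicate 2. The KO DMSO libraries were the highest of all 12: the KO PB libraries held 24.7 and 49.1 CPM, the WT CITCO libraries 51.5 and 61.8 CPM and the WT DMSO libraries 38.9 and 45.6 CPM. The 3 loci of 7SL RNA, the scaffold of the signal recognition particle, were called lower and summed to 283 and 270.3 CPM, against 358 and 357 CPM; among them RN7SL2 changed by -0.41 (adjusted p = 0.00286). The mitochondrial transfer RNAs MT-TS1, MT-TS2 and MT-TL2 were called higher and summed to 78.5 and 82.1 CPM, against 52.7 and 50.1 CPM, which were the lowest of the 12 libraries. MT-TS1 was at 44.5 and 44.9 CPM in KO CITCO libraries, against 27.9 and 26.8 CPM in KO DMSO libraries (log2 change 0.70, adjusted p = 4.70e-04). RN7SL2 lost its call without KO CITCO replicate 2 or KO DMSO replicate 1, and MT-TS2 without KO CITCO replicate 2 or KO DMSO replicate 2. None of the 10 tested members of the list of mitochondrially encoded genes was called by limma, with none at an unadjusted p under 0.05.

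**Figure D5:**
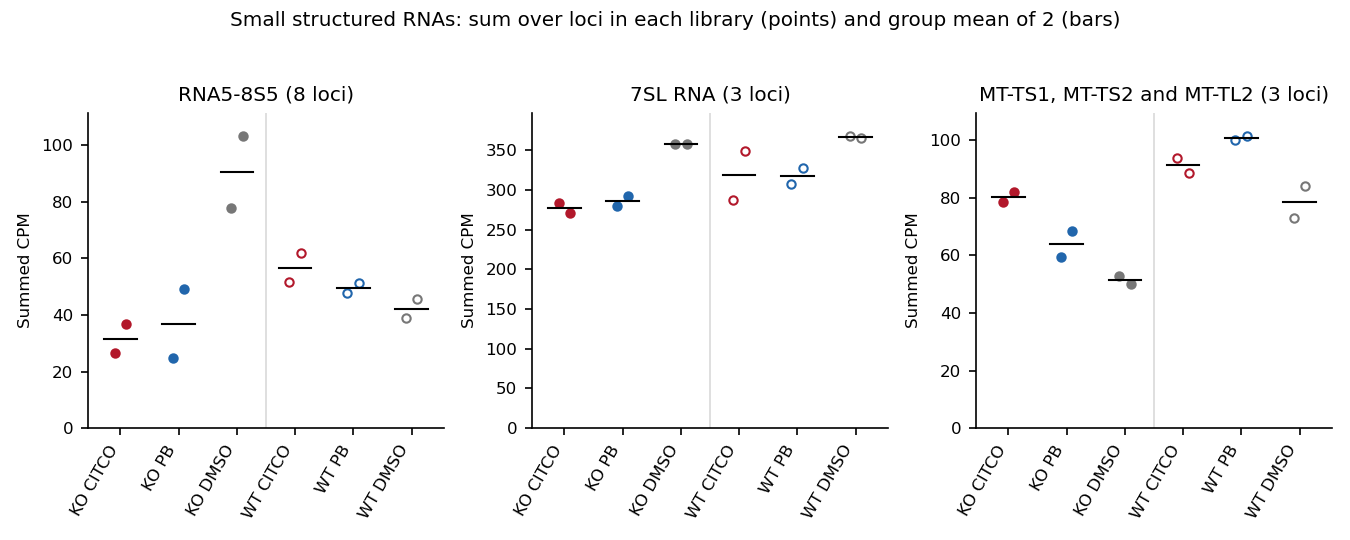
Summed CPM of 3 sets of small RNA loci in each of the 12 libraries (points; KO filled, WT open; bars are means of 2). In the left panel the 2 KO DMSO libraries stand above the other 10, and in the right panel they stand below them.

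Among the remaining called loci, RMDN2-AS1, an antisense transcript, was at 94.7 and 95.1 CPM in KO CITCO libraries, against 58.9 and 60.6 CPM in KO DMSO libraries (log2 change 0.66, SE 0.063, limma adjusted p = 1.24e-05), with no call in WT (0.12, adjusted p = 0.369). Its difference of 0.54 was called (adjusted p = 0.00676) but missed the threshold without either KO CITCO library or KO DMSO replicate 1 (up to 0.0652). In GENCODE release 29 this transcript overlaps CYP1B1, another AhR target, by 69 bases on the same strand. Reads of the 2 genes may therefore be hard to tell apart. CYP1B1 itself had no row among the loci used here and was not analysed. The clone-named locus RP11-311F12.2 was at 6.30 and 5.98 CPM in KO CITCO libraries, against 2.89 and 2.91 CPM in KO DMSO libraries (0.96, adjusted p = 2.22e-04) and changed by 0.98 in WT. SLC6A8, the creatine importer, was at 75.3 and 76.6 CPM in KO CITCO libraries, against 103 and 103 CPM in KO DMSO libraries (-0.44, adjusted p = 5.30e-04), and AKAP12, a scaffold of protein kinase A, at 119 and 121 CPM in KO CITCO libraries, against 163 and 156 CPM in KO DMSO libraries (-0.41, adjusted p = 7.83e-05). All of these KO calls held without each library. In KO PB libraries SLC6A8 was at 75.4 and 71.1 CPM and was not called between the drugs (log2 CITCO minus PB 0.052). RMDN2-AS1 (0.53), RP11-311F12.2 (0.80) and AKAP12 (0.25) were called higher with CITCO than with PB.

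The urea transporter SLC14A1 was at 17.5 and 15.5 CPM in KO CITCO libraries, against 10.5 and 10.2 CPM in KO DMSO libraries (0.65, adjusted p = 0.00633). ALPP changed by 0.42 (adjusted p = 0.00499) and the sodium channel gene SCN1A by 0.69 (adjusted p = 0.0418). ANKRD36 (0.44, adjusted p = 0.0236) and the clone-named loci RP11-313P13.4, CH17-264B6.3 and CH17-264B6.4 (0.55 to 0.56) were also called higher, and HSP90AA1, a heat shock chaperone, by 0.18 (adjusted p = 0.0428). Called lower were the glycine methyltransferase GNMT (-0.46), the microtubule protein MAP1B (-0.44), the extracellular ABI3BP (-0.40), the transcription factor ZHX2 (-0.40), the cytokine IL32 (-0.18), and 2 genes of the biliary and progenitor list, KRT19 (-0.35) and SOX4 (-0.39), with limma adjusted p-values of 0.00754 to 0.0428. KRT19, a keratin of bile duct cells, was at 68.2 and 63.3 CPM in KO CITCO libraries, against 83.9 and 84.0 CPM in KO DMSO libraries, while the sums of the other 4 biliary markers, given above, overlapped between the groups. The calls from SLC14A1 to SOX4 were each lost without at least 2 of the 4 libraries, taken 1 at a time. Between CITCO and PB in KO cells, GNMT (-0.45), ABI3BP (-0.52) and ZHX2 (-0.43) were called lower with CITCO and ANKRD36 (0.33) higher. KRT19 (0.0096), SOX4 (0.20), MAP1B (-0.12), IL32 (-0.11), SCN1A (0.37), HSP90AA1 (-0.11) and the clone-named loci (-0.029 to 0.0075) were not called between the drugs. In all, 68 of the 128 called loci, 28 higher and 40 lower, lie outside the naming rule, including CYP2C18, CYB5A, TYMS, CA9, BNIP3 and MT-TL2 given above. Of the rest, SERPINB2 and CFHR5 were chosen after their values were seen. SERPINB2, a protease inhibitor, was at 2.44 and 2.06 CPM in KO CITCO libraries, against 0.535 and 0.651 CPM in KO DMSO libraries (log2 change 1.33, adjusted p = 2.20e-04). CFHR5, a complement regulator, was at 1.95 and 0.620 CPM in KO CITCO libraries, against 0.0836 and 0.388 CPM in KO DMSO libraries (1.20, adjusted p = 0.0452), with the wider spread between duplicates.

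For 17 of the 34 lists no member was called in KO by limma, among them cholesterol synthesis (0 of 23, median -0.010), bile acid synthesis and FXR signalling (0 of 18, median 0.0017), interferon response (0 of 19, median 0.0021), acute phase (0 of 17, median -0.011), secreted plasma proteins (0 of 21, median -0.078) and ribosomal proteins (0 of 23, median 0.038). At an unadjusted p under 0.05 these 6 lists held 3, 4, 5, 5, 9 and 6 genes. Neither NR1I2 (-0.033, adjusted p = 0.921), HNF4A (-0.0059, adjusted p = 0.987; 0.011 with total scaling) nor RXRA (-0.095, adjusted p = 0.586) was called. CYP7A1, the rate-limiting enzyme of bile acid synthesis (0.10, adjusted p = 0.622), CYP2E1, which oxidises ethanol (-0.29, adjusted p = 0.0930), and ALB, albumin (-0.089, adjusted p = 0.316), were not called either. The authors' deposited table for the same comparison lists 14161 loci, with 319 under an FDR of 0.05. Those 319 hold 112 of the 128 loci called here, and 6 of the 128, CYP1A1 and CYP1A2 included, are not listed in it.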

How the data were processed

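Alignment and counting were the authors'. Per the submitters' processing notes, which give no roles, the tools were edgeR 2.12, Cuffdiff and Cufflinks 2.1.1, TopHat2 2.0.10 and Bowtie 1.0.0. Those notes name both GRCh37 and GRCh38, and strand handling is not given in the sources used here. The deposited table holds a normalized signal that its name calls CPM, with library totals 0.9003 to 1.114 times that of plain CPM, so library sizes carry the authors' scaling factors. The authors' deposited table of log2 fold changes, with p-values and FDR, was used for 1 check.

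Loci with at least 1 CPM in 2 libraries were fitted on log2(CPM + 0.5) with limma 3.58.1 (trended prior, R 4.3.3) over all 12 libraries in 6 groups, and p-values were adjusted over all loci (Benjamini-Hochberg, threshold 0.05, two-sided). This test had been chosen for plain CPM and was kept for the scaled values. All values in all 12 libraries were whole multiples of 1 read's worth within 0.001 reads. The stricter test used before a count model needs many values near 1 read, which KO libraries lack, so edgeR 4.0.16 was an alternative for WT alone. Fits were tested on simulated data. Named loci were a fixed panel, up to 15 of the largest called changes a direction with at least 5 CPM, up to 4 called a list and direction, and up to 8 a direction for the other comparisons. Other list members, SERPINB2 and CFHR5 were named after their values were seen. Values of 1 gene are not reported here. Members and lists were chosen with earlier results of these data known. Alternatives were the pseudocount, filter, scaling, prior, libraries fitted, replicate block and each library left out.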

Additional observations from a re-analysis of the deposited data

Results flagged for a closer look

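The response to CITCO in KO cells differed from that in WT cells at 53 loci by limma, and the named ones follow as log2 response in KO minus that in WT; each adjusted p is under 0.05 over all loci. The smaller responses in KO were those of CYP2B6 (-2.78), CYP2B7P (-2.20), CYP2A6 (-1.16), CYP3A4 (-0.55), CYP2C8 (-0.43) and POR (-0.45) among P450s and their reductase. Among oxidative stress and conjugation genes they were GPX2 (-1.41), AKR1B10 (-0.72), SRXN1 (-0.52), AKR1C2 (-0.50), AKR1C1 (-0.29), UGT2B4 (-0.41) and EPHX1 (-0.33). KRT19 differed by -0.45, a call lost without 7 of the 8 libraries taken 1 at a time.

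Higher in KO than in WT were the responses of CYP1A1 (1.72), RMDN2-AS1 (0.54), PCK1 (0.74), ANKRD36 (0.66), ATP2B2, a calcium pump gene (0.71), HLA-K, a pseudogene of the HLA family (0.71), CCDC144CP, a pseudogene (0.97), and SWT1 (0.81). PCK1, ATP2B2 and HLA-K were called lower in WT (-0.45, -0.74 and -0.60) and were not called in KO (0.29, -0.026 and 0.11). CCDC144CP and SWT1 were called in neither genotype, so the 8 differences are not all rises in KO. PCK1 alone among these 8 kept its call without each library in turn. The 8 loci of RNA5-8S5 differed by -1.82, -1.81, -1.80, -1.80, -1.80, -1.80, -1.79 and -1.78, and each lost the call without KO CITCO replicate 1, KO DMSO replicate 2 or WT CITCO replicate 2 (adjusted p up to 0.0973).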

How the results depend on the processing

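In KO cells, 121 to 145 loci were called with a pseudocount of 0.1 or 1 CPM, no filter, a filter of 5 CPM or total scaling, against 128. Fitting only the libraries compared gave 232, a constant prior variance 20, and leaving out 1 library 40 to 55. The WT count of 348 became 72 and 96 under the same pair of settings, 137 by edgeR on whole reads (100% of values whole within 0.001 reads), and 109 to 992 without 1 library. The difference (53) gave 6 with a constant prior and 23 to 491 without 1 library. CITCO against PB in KO (865) gave 1798 with only those libraries, 452 with a constant prior and 392 to 457 without 1 library. Of 60 named KO calls, 10 held under all 12 alternatives.

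Uncalled log2 values that changed sign without 1 library ran, in KO, over -0.030 to 0.029 for GSTA1 (0.016 with total scaling), -0.054 to 0.042 for HNF4A (0.011 with total scaling), -0.10 to 0.72 for GSTA5, -0.00671 to 0.15 for ALAS1, -0.11 to 0.019 for AHR and -0.093 to 0.041 for ATP2B2. For the difference they ran over -0.018 to 0.00810 for SLC6A8, -0.055 to 0.025 for RP11-311F12.2, -0.026 to 0.078 for TOP2A, -0.026 to 0.22 for SLC7A11, -0.018 to 0.12 for ALPP, -0.015 to 0.14 for CDK1, -0.0052 to 0.12 for HSP90AA1, -0.16 to 0.053 for CCNA2, -0.10 to 0.0011 for MKI67 and -0.082 to 0.033 for NFE2L2. The cause was not tested.

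Replicate numbers paired the samples weakly at most: deviations of same-numbered libraries correlated by over 0.1 in 4 of 15 pairs of groups. These were WT DMSO with WT PB (r = 0.288), KO DMSO with WT DMSO (r = 0.226), KO DMSO with KO PB (r = 0.180) and KO CITCO with KO DMSO (r = 0.113). With the replicate block, 117 loci were called in KO, 367 in WT, 51 for the difference and 827 against PB; among named loci the KO calls of BUB1, SCN1A and CH17-264B6.4 and the difference calls of CCDC144CP and SWT1 were lost. A count model of the KO libraries was not run. With 2 libraries a group, changes may be missed, and not only near the called minimum of 0.15. In KO cells CYP3A43 was not called at a log2 change of 0.66 (limma adjusted p = 0.0821), nor CCDC144CP at 0.47 (limma adjusted p = 0.165).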

Other observations

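Chosen after their values were seen, 7 clone-named loci (FP671120.7, FP236383.4, FP236383.12, AL592188.3, AL592188.8, AL353644.8 and AL353644.1) had log2 changes of 1.46 to 2.27 in KO cells that were not called by limma (lowest adjusted p = 0.495). They stood at 31.3 to 79.4 CPM in KO CITCO replicate 1 and 52.4 to 96.5 CPM in KO CITCO replicate 2, against 2.98 to 3.16 CPM in KO DMSO replicate 1 and 62.2 to 93.2 CPM in KO DMSO replicate 2. KO DMSO replicate 1 was thus the low library of the 4. In WT cells, WT DMSO replicate 1 was likewise low, at 0.647 to 0.736 CPM.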
